A study of Homo sapiens with 6 samples.

Results

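Integrin alpha subunits were examined in spheroids and monolayers of NCI-H226, an established human mesothelioma cell line. The family was taken as the 10 genes ITGA1, ITGA2, ITGA3, ITGA4, ITGA5, ITGA6, ITGA7, ITGA10, ITGA11 and ITGAV, and every probe set annotated to one of them was read, 20 of the 54675 on the array. The spheroids were 3 biological replicates, seeded at 10000 cells per spheroid in wells coated with poly-HEMA, a film that cells do not attach to, spun down and kept for 24 hours without added matrix. The monolayers were 3 biological replicates of the same cells grown attached in RPMI medium with fetal bovine serum. RNA of each culture was hybridized to 1 array. Both groups are a single cell line, with no stromal or immune cells added.

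An integrin is a pair of one alpha and one beta subunit that spans the plasma membrane, binds matrix or another cell outside, and joins the actin cytoskeleton through talin, kindlin and other adaptors inside. The alpha subunit largely sets the ligand. Alpha 1, 2, 10 and 11 carry an inserted domain that binds collagen. Alpha 3, 6 and 7 bind the laminins of basement membranes, and alpha 5 and V bind the RGD motif (arginine, glycine, aspartate) of fibronectin, vitronectin and other proteins. Alpha 4 binds VCAM1 and an LDV site of fibronectin. Mesothelial cells rest on a basement membrane, and their tumors grow both attached to the pleura and as free clusters in pleural fluid.

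Among the collagen-binding subunits ITGA1 was upregulated in spheroids at all 3 of its probe sets, and among the RGD-binding subunits ITGA5 was upregulated. For ITGA1 the call held in 14 of 16 alternative settings at 226731_at, in all 16 at 214660_at and in 8 of 15 at 1560359_at. The study lists 214660_at under another gene, PELO. The laminin-binding subunit ITGA6 was downregulated at 1 of its 2 probe sets. No probe set of ITGA2, ITGA3, ITGA4, ITGA7, ITGA10, ITGA11 or ITGAV was called. A probe set is called where its Benjamini-Hochberg adjusted p from limma, over all 54613 probe sets other than controls, is under 0.05. Signals are MAS5 intensities as deposited, on a linear scale, and log2 fold changes are spheroids minus monolayers after each array was centred on its median. Of the 20 probe sets 4 were called higher and 1 lower, where 9.43% of all probe sets were called (2.78% higher and 6.65% lower). With each gene read at its probe set of highest mean level, 2 of the 10 were higher and none was lower by limma. Over all 19775 genes 13.1% were called (3.88% higher and 9.22% lower). At an unadjusted p under 0.05, 4 of the 10 were higher and 1 lower, where 1903 of the 19775 genes were higher and 3548 lower. RNA of whole cultures was measured, so more cells that express a gene and more RNA per cell cannot be told apart.

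The promoters of ITGA1 and ITGA5 are shown because these are the members called higher at their probe set of highest level. They are the 250 bases before the annotated start of each gene, from RefSeq on GRCh38.p14, written 5′ to 3′ on the strand of the gene. Capitals mark matches to 4 short motifs searched on both strands, the Sp1 site GGGCGG, the AP-1 site TGANTCA, the TEAD site CATTCC and the core promoter element TATAAA. The window of ITGA1 is chr5:52787666-52787915 on the plus strand and that of ITGA5 is chr12:54419267-54419516 on the minus strand.
ITGA1: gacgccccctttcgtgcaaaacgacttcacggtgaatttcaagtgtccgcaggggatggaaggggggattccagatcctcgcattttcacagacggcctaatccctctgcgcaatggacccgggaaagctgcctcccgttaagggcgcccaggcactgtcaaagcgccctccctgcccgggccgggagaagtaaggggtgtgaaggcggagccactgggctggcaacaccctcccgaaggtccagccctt
ITGA5: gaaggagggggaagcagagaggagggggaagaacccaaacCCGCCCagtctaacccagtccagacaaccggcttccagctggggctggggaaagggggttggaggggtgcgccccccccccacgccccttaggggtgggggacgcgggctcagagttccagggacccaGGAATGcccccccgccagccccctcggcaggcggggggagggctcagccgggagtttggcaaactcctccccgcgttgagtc
The ITGA1 window held none of these letters, and the ITGA5 window held 1 Sp1 match and 1 TEAD match, both on the opposite strand and not overlapping. Promoters of 8 of the 10 members were matched by symbol, without ITGA3 and ITGA7. The Sp1 letters were in 2 of the 8 (ITGA2, with 4 matches, and ITGA5), against 42.6% of 35116 promoters of the same length. The TEAD letters were in 2 (ITGA5 and ITGA10), against 11.9%, the core element in 1 (ITGA6), against 10.7%, and the AP-1 letters in 0 of the 8, against 6.57%. G and C made up 62.0% of the ITGA1 window and 70.0% of the ITGA5 window, beside a median of 58.0% over all promoters. In the annotation PELO, a ribosome rescue factor, starts at the same base as ITGA1 and ends inside its span, so this window stands before both genes. ITGA2 lies near them on chromosome 5.

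**Figure D1:**
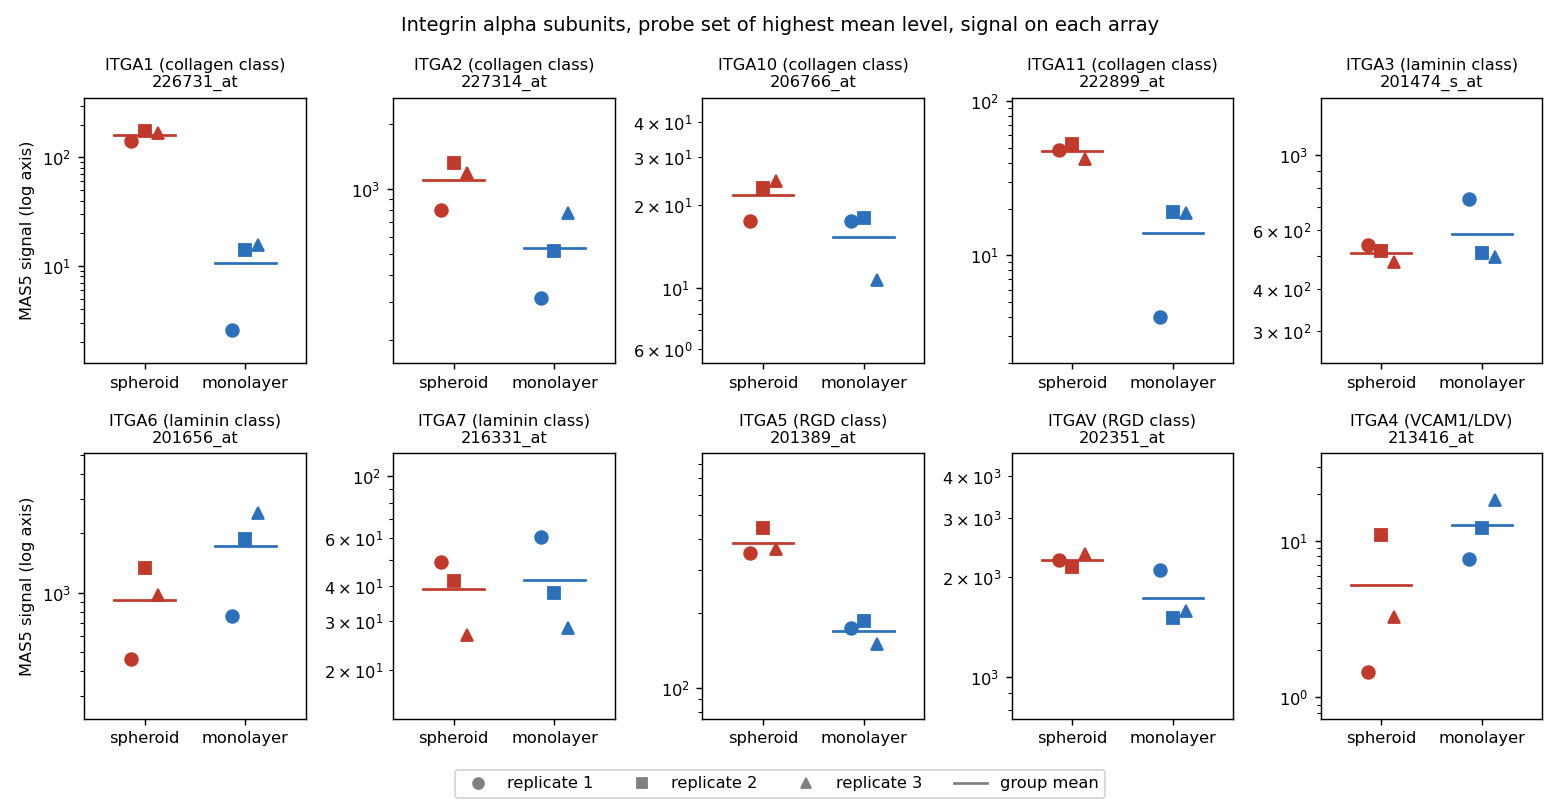
MAS5 signal of the 10 integrin alpha genes on each array (log vertical axis, 1 panel per gene, its probe set of highest mean level). Symbols are the 3 replicates of a group and bars the group means. In these deposited signals ITGA1, ITGA2, ITGA11, ITGA5 and ITGAV have every spheroid above every monolayer, ITGA1 with 141 to 177 in spheroids against 2.54 to 15.5 in monolayers. The groups of ITGA2 and ITGAV overlap after centring. Over all probe sets 29.2% did not overlap in deposited signals, in either direction.

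ITGA1, whose alpha 1 beta 1 integrin favors type IV collagen, had signals of 141, 177 and 169 in spheroids 1, 2 and 3, against 2.54, 13.9 and 15.5 in monolayers 1, 2 and 3, at probe set 226731_at. The groups did not overlap, and monolayer 1 was the lowest array. The mean was 162 ± 18.9 in spheroids and 10.6 ± 7.07 in monolayers (SD, n = 3 each). The log2 fold change, taken between means of centred log2 values and not from these linear means, was 4.16 (standard error, SE, 0.60, limma adjusted p = 0.00373). Without monolayer 1 the log2 fold change was 3.31 (limma adjusted p = 5.74e-05). The call ended in limma without its mean-variance trend (adjusted p = 0.0644) and in the methods' t-test after adjustment over all probe sets.
At 214660_at ITGA1 had signals of 55.7, 78.4 and 80.1 in spheroids and 7.54, 9.26 and 10.1 in monolayers. Every spheroid was several times above every monolayer, and the 3 monolayers lay close together. On the log2 scale spheroids were higher by 2.84 (SE 0.29, 95% interval 2.19 to 3.49, limma adjusted p = 9.29e-04). It lay between 2.70 and 2.98 and passed in all 16 alternatives tried, which include the methods' t-test without adjustment. The study chose this probe set on these samples and lists it under PELO, whereas the platform annotation used here gives it to ITGA1.
The third probe set of ITGA1, 1560359_at, had 19.1, 24.5 and 23.8 in spheroids and 6.41, 0.911 and 0.275 in monolayers. Here monolayer 1 was the highest of its group. The change was 4.11 in log2 signal (SE 1.01, limma adjusted p = 0.0359), and 2.40 with values below the 20th percentile, a signal of 3.11, raised to it as a floor. The call held in 8 of 15 alternatives. It ended without any one spheroid and without monolayer 2 or monolayer 3 (adjusted p of 0.0721 to 0.124 by limma). It also ended in limma without the trend (adjusted p = 0.136) and in the methods' t-test after adjustment (adjusted p = 0.218).
PELO had 3 probe sets of its own, none of which was called. The brightest, 218472_s_at, had 881, 1026 and 1133 in spheroids and 812, 1008 and 1033 in monolayers, with overlapping groups and a log2 fold change of -0.05 (95% interval -0.41 to 0.31, limma adjusted p = 0.897). At the dim 221076_at every spheroid was above every monolayer, with 5.79, 7.88 and 5.12 in spheroids and 4.08, 2.65 and 2.07 in monolayers (log2 fold change 0.98, 95% interval -0.28 to 2.24, limma adjusted p = 0.356). PELO was added after its values were seen.

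ITGA11, which pairs with beta 1 as a receptor for fibrillar collagen and is best known from fibroblasts, had signals of 48.2, 52.6 and 42.3 in spheroids, against 4.0, 19.1 and 18.9 in monolayers, at 222899_at. The groups did not overlap, and monolayer 1 was again the lowest array. The mean was 47.7 ± 5.16 in spheroids and 13.97 ± 8.64 in monolayers (SD, n = 3 each). The log2 fold change from centred log2 values was 1.93 (SE 0.56, 95% interval 0.65 to 3.20) and did not pass (limma adjusted p = 0.0677). Without monolayer 1 it was 1.18 and passed (limma adjusted p = 0.0161).
The other probe sets of ITGA11 were dim and their groups overlapped. At 233335_at the signals were 9.87, 4.62 and 5.81 in spheroids and 2.02, 0.844 and 6.07 in monolayers (log2 fold change 1.41, 95% interval -0.40 to 3.23, limma adjusted p = 0.353). At 1554819_a_at they were 1.32, 18.8 and 6.65 in spheroids and 4.94, 4.59 and 3.90 in monolayers (log2 fold change 0.15, 95% interval -1.80 to 2.11, limma adjusted p = 0.948). A difference was not detectable at either.
Of 6 fibroblast markers 1 was called higher and none lower by limma, where 3.88% of all genes were higher and 9.22% lower. The marker called was PDGFRA, a growth factor receptor, with 107, 40.5 and 47.0 in spheroids and 4.74, 7.30 and 2.13 in monolayers. The summed signal of the 6 was 648 to 695 in spheroids and 495 to 839 in monolayers. The brightest, THY1, had 429, 474 and 476 in spheroids and 369, 748 and 560 in monolayers, and the matrix protein DCN had 24.1, 26.1 and 23.3 in spheroids and 11.7, 17.3 and 14.2 in monolayers. FAP, a surface protease, lay the other way with no overlap, at 2.82, 5.43 and 3.47 in spheroids and 9.64, 7.31 and 5.79 in monolayers (log2 fold change -1.13, limma adjusted p = 0.253). PDGFRA, DCN and FAP were named after their values were seen. The part of these markers in the ITGA1 and ITGA11 values was not tested.

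ITGA2, whose alpha 2 beta 1 integrin binds fibrillar collagen, had signals of 802, 1318 and 1187 in spheroids and 312, 516 and 776 in monolayers at 227314_at. Every spheroid was above every monolayer in these signals, the groups overlapped after centring, and replicate 1 was the lowest in both groups. The difference in log2 signal was 0.97 (SE 0.30, 95% interval 0.28 to 1.65, limma adjusted p = 0.0850). Without monolayer 3 it was 1.28 and passed (limma adjusted p = 0.0327), and without monolayer 1 it was 0.63.
At 205032_at ITGA2 had 321, 739 and 399 in spheroids and 113, 304 and 465 in monolayers. The groups overlapped, with replicate 1 the lowest in each, and the log2 fold change was 0.71 (95% interval -0.33 to 1.75, limma adjusted p = 0.425). Without monolayer 1 it was 0.13 and without monolayer 3 it was 1.15. ITGA10, a collagen receptor subunit of cartilage, had 17.5, 23.0 and 24.5 in spheroids and 17.6, 17.9 and 10.6 in monolayers at its single probe set (log2 fold change 0.38, 95% interval -0.43 to 1.18, limma adjusted p = 0.614). Its groups overlapped, at signals near the array medians of 14.6 to 18.0.
All 9 probe sets of the 4 collagen-binding genes had a log2 fold change above 0, and 3 of them, all of ITGA1, were called. The median over the 4 genes, each at its probe set of highest level, was 1.45 (1 of 4 called higher), where the median over all genes was -0.06. Of all 19775 genes 9093 had a log2 fold change above 0.

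**Figure D2:**
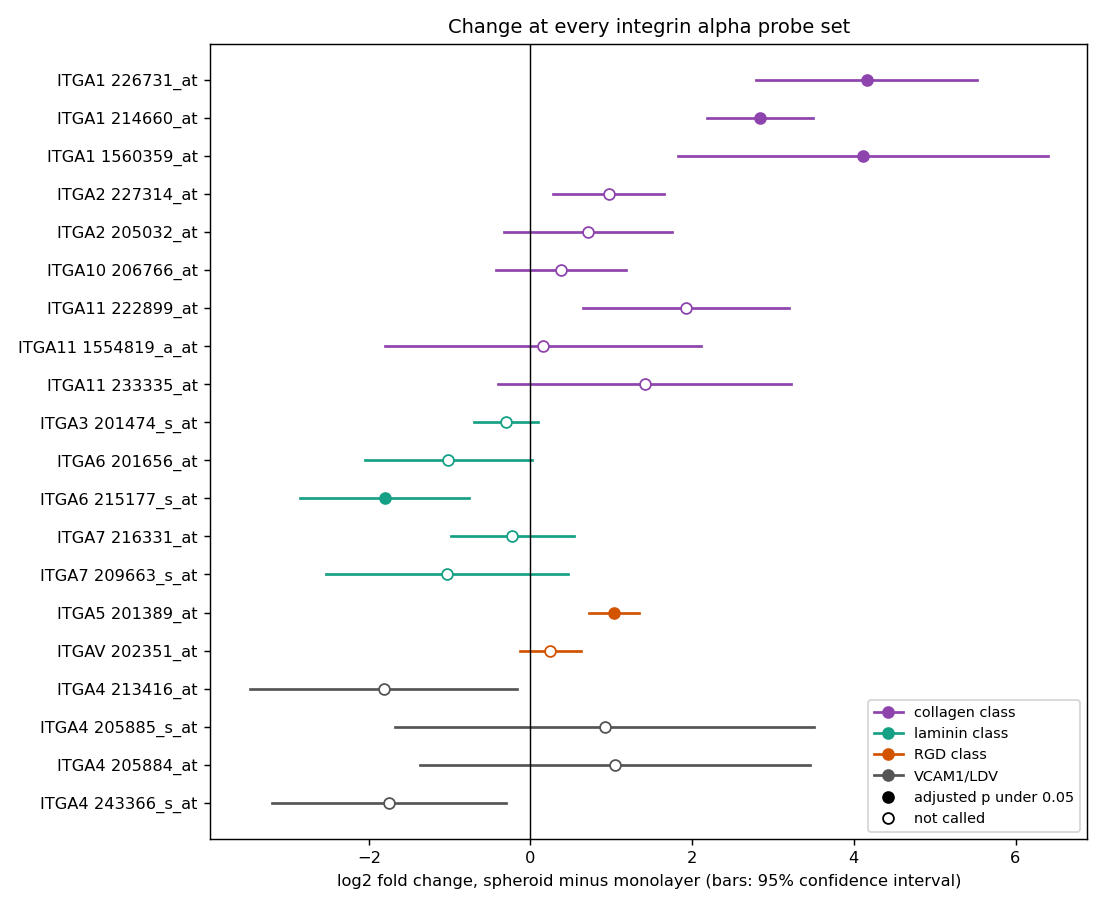
Log2 fold change, spheroids minus monolayers, at each of the 20 integrin alpha probe sets, with 95% confidence intervals from limma and a color for each ligand class. Filled points are the 5 probe sets with an adjusted p under 0.05, and the collagen class runs from 0.15 to 4.16 and the laminin class from -1.80 to -0.22.

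The 3 laminin-binding genes had log2 fold changes below 0, as did 10682 of all 19775 genes. ITGA6, which pairs with beta 4 in hemidesmosomes and with beta 1 elsewhere, had signals of 181, 495 and 295 in spheroids, against 427, 1255 and 1542 in monolayers, at 215177_s_at. Replicate 1 was the lowest in both groups, and monolayer 1 lay below spheroid 2, while after centring the groups did not overlap. The mean was 323 ± 159 in spheroids and 1075 ± 579 in monolayers (SD, n = 3 each). The log2 fold change from centred log2 values was -1.80 (SE 0.46, limma adjusted p = 0.0426). The call held in 4 of 16 alternatives. It ended on the values as deposited (-1.66, limma adjusted p = 0.0798) and without any one array other than monolayer 1 (adjusted p of 0.0748 to 0.145 by limma), while without monolayer 1 the log2 fold change was -2.37 (limma adjusted p = 0.00124).
The brighter probe set of ITGA6, 201656_at, had 458, 1331 and 974 in spheroids and 761, 1875 and 2549 in monolayers. The same replicate 1 arrays were the lowest, and the groups overlapped. The log2 fold change was -1.02 (SE 0.46, 95% interval -2.05 to 0.01, limma adjusted p = 0.229), and without monolayer 1 it was -1.52 and passed (limma adjusted p = 0.0178). Without spheroid 1 it was -0.61 and without monolayer 3 -0.66 (adjusted p = 0.512 and 0.507 by limma).
ITGA3, a receptor subunit for laminins of epithelial basement membranes, had 541, 518 and 481 in spheroids and 740, 511 and 499 in monolayers. Monolayer 1 was the highest array, and the others lay between 481 and 541. The log2 fold change was -0.31 (95% interval -0.70 to 0.09, limma adjusted p = 0.355).
ITGA7, a laminin receptor subunit of muscle, had 49.1, 42.0 and 26.6 in spheroids and 60.4, 37.8 and 28.2 in monolayers at 216331_at. The groups overlapped (log2 fold change -0.22, 95% interval -0.99 to 0.54, limma adjusted p = 0.773). At 209663_s_at they overlapped too, with 14.7, 19.7 and 2.98 in spheroids and 25.8, 16.6 and 12.8 in monolayers (log2 fold change -1.03, 95% interval -2.53 to 0.46, limma adjusted p = 0.421). On the values as deposited the log2 fold change was -0.16 for ITGA3 and -0.08 for ITGA7 at 216331_at. All 5 probe sets of the 3 laminin-binding genes had a log2 fold change below 0, and 1, of ITGA6, was called. The median over the 3 genes was -0.31, and at the probe set of highest level limma called none of them (0 before adjustment too, at p under 0.05).

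**Figure D3:**
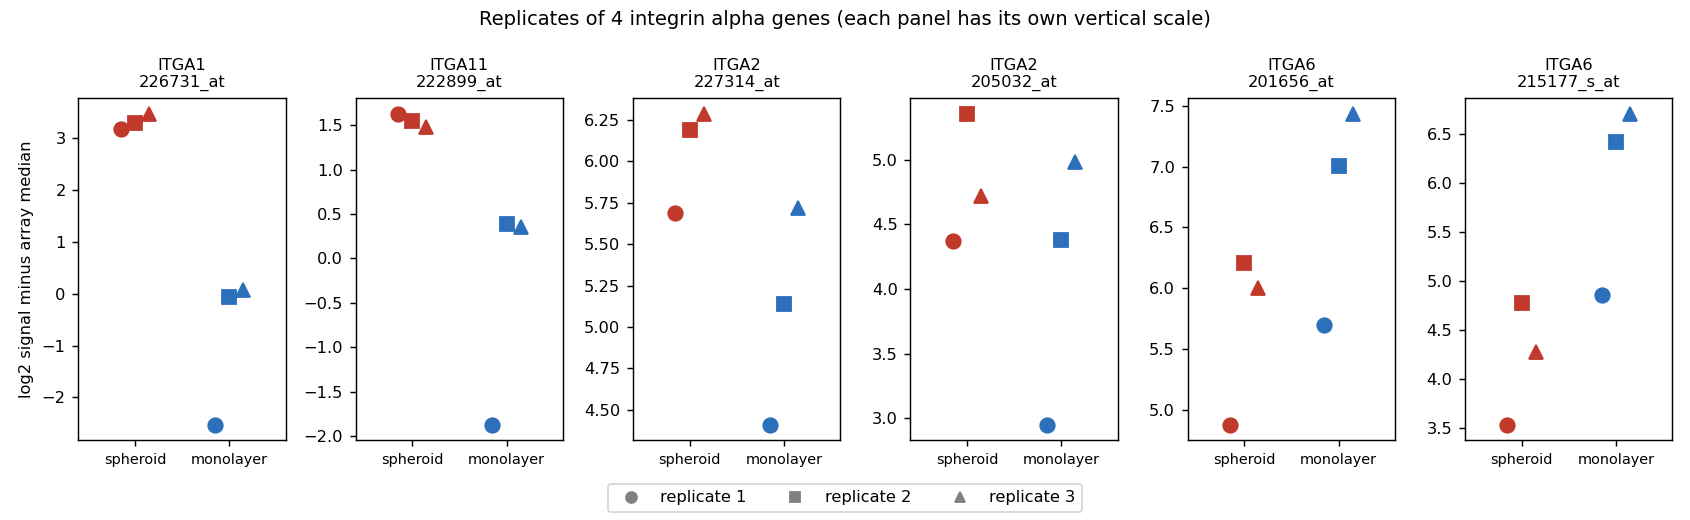
Log2 signal minus the array median at 6 probe sets of ITGA1, ITGA11, ITGA2 and ITGA6, with 1 symbol for each replicate number (each panel has its own vertical scale). Replicate 1 (circles) is the lowest array of both groups in every panel except that of ITGA11, where it is the lowest monolayer but not the lowest spheroid.

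Replicate 1 held the same rank in both culture types for some members. It was the lowest array of both groups, after centring, at 7 of the 20 probe sets (2 each of ITGA1, ITGA2 and ITGA6 and 1 of ITGA4), where 12.7% of all probe sets had this order. For ITGA1 at 226731_at the log2 deviation from the group mean was -0.14 for spheroid 1 and -1.69 for monolayer 1. At 214660_at these deviations were small, -0.28 and -0.24. At ITGA3 and at 216331_at of ITGA7 replicate 1 was instead the highest array of both groups after centring. Genes of the other lists showed replicate 1 apart in either direction. LAMA4, a laminin chain, had 46.1, 278 and 190 in spheroids and 20.3, 383 and 402 in monolayers. KRT5, a keratin, had 911, 267 and 290 in spheroids and 1845, 130 and 79.3 in monolayers. LAMA4 and KRT5 were chosen after their values were seen, and so was the setting that leaves out both replicate 1 arrays. In it 8 of the 20 probe sets were called, where 12.1% of all probe sets were. The log2 fold change was then 3.38 for ITGA1 at 226731_at (limma adjusted p = 6.51e-05), 1.14 for ITGA11 at 222899_at (limma adjusted p = 0.0308) and 0.81 for ITGA2 at 227314_at (limma adjusted p = 0.0291). For ITGA6 it was -1.12 at 201656_at (limma adjusted p = 0.00604) and -2.04 at 215177_s_at (limma adjusted p = 2.97e-04).

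ITGA5, the alpha subunit of the main fibronectin receptor, had signals of 349, 441 and 363 in spheroids, against 174, 185 and 150.0 in monolayers, at its single probe set. The lowest spheroid was well above the highest monolayer, and replicate 1 did not stand apart. The mean was 384 ± 49.7 in spheroids and 169.6 ± 18.0 in monolayers (SD, n = 3 each). The log2 fold change from centred log2 values was 1.03 (SE 0.14, 95% interval 0.72 to 1.35, limma adjusted p = 0.00263). It lay between 0.94 and 1.21 in 16 alternatives and lost its call in limma without the trend alone (adjusted p = 0.0654).
ITGAV, the alpha subunit shared by vitronectin receptors and TGF-beta activating integrins, had 2236, 2140 and 2333 in spheroids and 2087, 1507 and 1577 in monolayers. Every spheroid was above every monolayer in the signals as deposited, though not after centring. The log2 fold change was 0.24 (95% interval -0.13 to 0.62, limma adjusted p = 0.454), and without the centring it was 0.39, which did not pass either. The median of the 2 genes was 0.64.

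ITGA4, the subunit that binds VCAM1 and is best known from leukocytes, was dim at all 4 of its probe sets, each below the median level. At 213416_at the signals were 1.46, 11.0 and 3.29 in spheroids and 7.69, 12.2 and 18.2 in monolayers, with overlapping groups (log2 fold change -1.82, 95% interval -3.47 to -0.17, limma adjusted p = 0.177). The other probe sets had signals of 0.346 to 10.8 in spheroids and 0.416 to 4.97 in monolayers, and their log2 fold changes of 0.92, 1.04 and -1.75 differed in sign. None of the 4 was called by limma. Over the family, groups did not overlap at 8 of the 20 probe sets in the deposited signals and at 7 after centring, where 29.2% and 27.8% of all probe sets did not overlap.

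Of 6 beta subunits that pair with these alpha subunits 1 was higher and none was lower by limma (the same counts at an unadjusted p under 0.05). Among all genes 3.88% were called higher and 9.22% lower. ITGB8, which pairs with alpha V and holds latent TGF-beta, had 410, 509 and 600 in spheroids and 109, 57.6 and 78.2 in monolayers (log2 fold change 2.52, SE 0.25, limma adjusted p = 8.36e-04). ITGB1, the partner of every collagen-binding alpha subunit and of alpha 5, had 4230, 4465 and 4561 in spheroids and 3626, 3908 and 3357 in monolayers (log2 fold change 0.14, 95% interval -0.17 to 0.45, limma adjusted p = 0.625). The groups of ITGB8 lay far apart, while those of ITGB1 overlapped after centring. ITGB1 was named after its values were seen. ITGB4, which pairs with alpha 6, had a log2 fold change of 0.26 (95% interval -0.27 to 0.78) and did not pass. ITGB7, which pairs with alpha 4, had a log2 fold change of -1.34 (95% interval -3.04 to 0.37) and did not pass.

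Outside the 10 genes 8 alpha subunits were measured, with 2 called higher and 1 called lower, where 3.88% of all genes were called higher and 9.22% lower. ITGAX, a complement receptor subunit of myeloid cells, had 38.2, 57.5 and 53.3 in spheroids and 15.4, 16.1 and 16.2 in monolayers (log2 fold change 1.48, limma adjusted p = 0.00929). ITGA2B, the platelet fibrinogen receptor subunit, had 31.1, 23.5 and 24.4 in spheroids and 10.1, 5.40 and 6.15 in monolayers (log2 fold change 1.76, limma adjusted p = 0.0277). ITGAE, a receptor subunit for E-cadherin, had 1243, 1205 and 1399 in spheroids and 1730, 1706 and 1858 in monolayers (log2 fold change -0.61, limma adjusted p = 0.0316). The groups did not overlap at any of these. The ITGAX call ended without spheroid 3 (limma adjusted p = 0.0524) and in limma without the trend (adjusted p = 0.0518). In that setting, and in the methods' t-test after adjustment, the ITGA2B and ITGAE calls ended too. The ITGA2B call ended without any one array other than monolayer 1 (adjusted p of 0.0657 to 0.101 by limma) and with the floor (0.0540), and that of ITGAE without spheroid 1, spheroid 2, monolayer 2 or monolayer 3 (adjusted p of 0.0560 to 0.129 by limma) and with the floor (0.0670). Of 7 leukocyte markers none was called by limma (2 were higher and none was lower before adjustment, at p under 0.05). Their summed signal was 122 to 135 in spheroids and 69.1 to 91.0 in monolayers. The brightest was CD14, with 41.7, 39.7 and 50.7 in spheroids and 21.9, 27.9 and 13.01 in monolayers, while the myeloid factor SPI1 was at 0.792 to 1.85 in spheroids and 1.02 to 2.28 in monolayers. PTPRC, the pan-leukocyte marker CD45, had 13.3, 13.9 and 12.1 in spheroids and 6.70, 3.51 and 1.56 in monolayers, with no overlap (log2 fold change 1.83, limma adjusted p = 0.106). SPI1 and PTPRC were named after their values were seen. Of 6 endothelial markers none was called by limma (1 was higher and none was lower before adjustment). Their summed signal was 176 to 231 in spheroids and 241 to 482 in monolayers, and TIE1 had 62.4, 165 and 124 in spheroids and 19.3, 204 and 205 in monolayers. KDR had 422 in monolayer 1, against 13.6 and 8.35 in monolayers 2 and 3. VWF, the marker higher before adjustment, had 21.4, 5.41 and 23.6 in spheroids and 3.89, 2.96 and 2.66 in monolayers (log2 fold change 2.01, limma adjusted p = 0.115). KDR and VWF were named after their values were seen. The part of these markers in the integrin values was not tested.

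**Figure D4:**
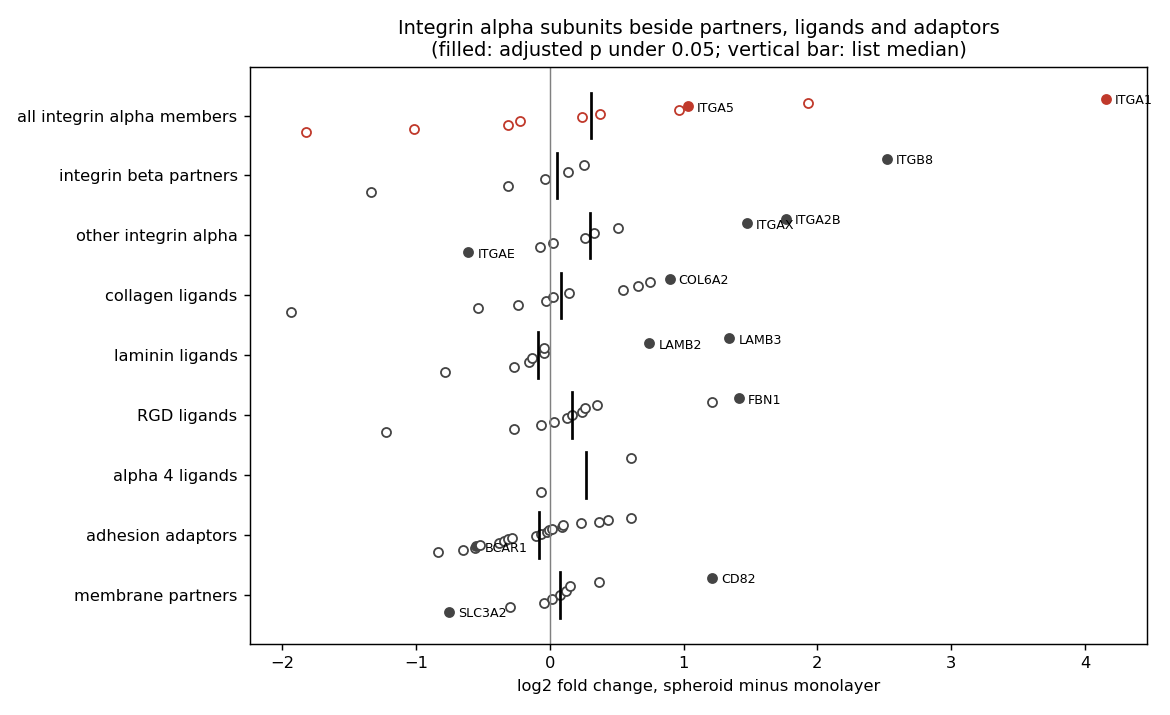
Log2 fold change, spheroids minus monolayers, of the 10 integrin alpha genes (top row) and of the genes of 8 related lists, each read at its probe set of highest mean level. Filled points with names have an adjusted p under 0.05, and vertical bars are list medians, 0.31 for the 10 genes and between -0.09 and 0.30 for the related lists.

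Ligands of each class were measured beside their receptors. Beside each count below, 3.88% of all 19775 genes were called higher and 9.22% lower. Of 10 collagen chains 1 was higher, COL6A2, a chain of the beaded filament collagen VI, with 206, 240 and 162 in spheroids and 88.6, 111 and 93.3 in monolayers (log2 fold change 0.90, limma adjusted p = 0.0110). Its partner chains COL6A1 and COL6A3 had log2 fold changes of 0.75 and 0.66 and did not pass (adjusted p = 0.0636 and 0.370 by limma). COL6A1 did pass without the centring (0.89, limma adjusted p = 0.0249), after quantile normalization (0.0354), centred on the 75th percentile (0.0230) and without monolayer 1 (0.00353). The COL6A2 call ended without spheroid 2 (limma adjusted p = 0.0518) or monolayer 3 (0.0505). The basement membrane chain COL4A1, a ligand of alpha 1 beta 1 named after its values were seen, had 3218, 1977 and 2004 in spheroids and 3673, 1514 and 1262 in monolayers, with overlapping groups (log2 fold change 0.14, 95% interval -0.72 to 1.005).
Of 8 laminin chains 2 were higher. LAMB3, a chain of laminin-332, had 79.9, 141 and 98.9 in spheroids and 48.4, 29.1 and 35.8 in monolayers (log2 fold change 1.34, limma adjusted p = 0.0114). LAMB2 had 506, 545 and 393 in spheroids and 330, 244 and 211 in monolayers (log2 fold change 0.74, limma adjusted p = 0.0367). The LAMB3 call ended without spheroid 2 (limma adjusted p = 0.0617) or spheroid 3 (0.0537), and the LAMB2 call without any one array other than monolayer 1 (adjusted p of 0.0677 to 0.134 by limma) and with the floor (0.104). LAMA2 had -0.79 and did not pass.
Of 11 proteins with an RGD site 1 was higher, the microfibril protein FBN1, with 1910, 1175 and 976 in spheroids and 661, 412 and 313 in monolayers (log2 fold change 1.42, limma adjusted p = 0.0237). TNC and IBSP had log2 fold changes of 1.21 and -1.22 and did not pass (adjusted p = 0.0875 and 0.264 by limma), though TNC passed without monolayer 3 (1.58, limma adjusted p = 0.0423). The FBN1 call ended without any one array other than monolayer 1 (adjusted p of 0.0526 to 0.0863 by limma) and with the floor (0.121). FN1, the ligand of alpha 5 beta 1 and named after its values were seen, had 146, 78.4 and 53.2 in spheroids and 116, 49.1 and 48.0 in monolayers (log2 fold change 0.24, 95% interval -0.73 to 1.22). The alpha 4 ligands VCAM1 and MADCAM1 had log2 fold changes of -0.06 and 0.61, the first of which turned to 0.08 on the values as deposited, and neither passed.
Of 20 adaptors at the cytoplasmic side 1 was lower and none was higher by limma. At an unadjusted p under 0.05, 5 were lower and none higher, where 3548 of 19775 genes were lower and 1903 higher. BCAR1, the scaffold p130Cas, had 187, 186 and 171 in spheroids and 253, 255 and 216 in monolayers (log2 fold change -0.55, limma adjusted p = 0.0434). Its call ended without any one array (adjusted p of 0.0609 to 0.167 by limma) and without the centring (0.0817). The kindlin FERMT1 and paxillin, PXN, had log2 fold changes of -0.83 and -0.38 and did not pass.
Of 9 membrane partners 1 was higher and 1 lower. The tetraspanin CD82 had 746, 635 and 646 in spheroids and 341, 251 and 211 in monolayers (log2 fold change 1.22, limma adjusted p = 0.00608). SLC3A2, the heavy chain of CD98, which binds beta 1 tails, had 591, 715 and 785 in spheroids and 1216, 919 and 1053 in monolayers (log2 fold change -0.75, limma adjusted p = 0.0218). The groups did not overlap at either, though the SLC3A2 call ended without spheroid 1, spheroid 2 or monolayer 3 (adjusted p of 0.0753 to 0.0778 by limma). The tetraspanin CD9 had 0.37 and did not pass, while it passed without the centring (0.51, limma adjusted p = 0.0342), after quantile normalization (0.46, 0.0497) and centred on the 75th percentile (0.50, 0.0334).

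Of 12037 other genes above the median level, those whose centred values over the 6 arrays were most like ITGA1 were NDRG1, a stress-responsive gene, and CCNG2, cyclin G2, both with a Pearson r of 0.996. Those most like ITGA5 were SSH1, a phosphatase of the actin regulator cofilin, with r = 0.997, and CPQ, a carboxypeptidase, with r = 0.995. Their log2 fold changes were 2.34 for NDRG1, 2.75 for CCNG2, 0.36 for SSH1 and 0.87 for CPQ. The 6 arrays fall into the same 2 groups and share their scaling, so r is a description of likeness and carries no test.

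Of all probe sets 1519 were called higher and 3630 lower, and 2561 higher and 2863 lower on the values as deposited, 2463 and 2967 after quantile normalization and 2467 and 2862 with arrays centred on the 75th percentile. Centring on the median lowered every log2 fold change by 0.15. Of 9 mesothelial markers 1 was higher, PDPN, and none was lower by limma (2 were higher and 1 was lower before adjustment). The shares of all genes called were 3.88% higher and 9.22% lower. KRT19 was the brightest, at 5325 to 5820 in spheroids and 4534 to 5152 in monolayers, and the transcription factor WT1 was at 1811 to 2009 in spheroids and 1347 to 1845 in monolayers. Calretinin, CALB2, had 2238, 1317 and 1765 in spheroids and 1582, 163 and 83.6 in monolayers (log2 fold change 2.49, limma adjusted p = 0.125). Thrombomodulin, THBD, had 96.1, 86.5 and 54.3 in spheroids and 349, 99.9 and 127 in monolayers (log2 fold change -1.24, limma adjusted p = 0.109). WT1, CALB2 and THBD were named after their values were seen. RNA integrity was read from the control probe sets at both ends of a transcript. For ACTB the 3′ end over the 5′ end gave 1.17 ± 0.0603 in spheroids and 1.09 ± 0.0123 in monolayers (SD, n = 3 each; exact permutation test on both sides, p = 0.1, which no split of 3 against 3 can go under, and 0.2 after Benjamini-Hochberg over 2 controls). For GAPDH this ratio was 0.901 ± 0.0121 in spheroids and 0.894 ± 0.0174 in monolayers (the same exact test, p = 0.6). The part of RNA integrity in the integrin values was not tested.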

How the data were processed

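Total RNA of 3 spheroid and 3 monolayer cultures was read on Affymetrix Human Genome U133 Plus 2.0 arrays. The deposited values are signal intensities per probe set on a linear scale, made by the authors with MAS5. Their mean without the outer 2% at each end is 150.0 on every array. The methods name a normalization to the median, but the deposited medians differ (14.6 to 18.0). Detection calls were not used here, so signal over background is unknown, and precision is set by 3 arrays a group.

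Signals were converted to log2 and centred on the median of each array, with no pseudocount or filter. After 62 control probe sets were left out, limma 3.58.1 (R 4.3.3) was run on 54613 probe sets, spheroids against monolayers, with a mean-variance trend and Benjamini-Hochberg adjustment. The fit was tested on simulated data. Names came from the platform annotation, with symbols updated through RefSeq gene IDs (41097 probe sets with 1 symbol, 1801 with several and 11777 with none), and no probe set with several symbols held a member.

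Members were named at every probe set, with up to 3 genes of smallest adjusted p from each related list, the 2 genes most like each called member, and the marker of highest spheroid signal in each marker list. Members and lists were chosen with earlier results of these data known. Alternatives were other scalings, a floor at the 20th percentile, a filter on dim probe sets, the methods' t-test with and without adjustment, a replicate block, limma with no trend, the mean over the probe sets of a gene, leaving out each array and, added after the values were seen, leaving out both replicate 1 arrays. For the t-test without adjustment, an unadjusted p under 0.05 was counted as a call.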

Additional observations from a re-analysis of the deposited data

How the results depend on the processing

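ITGA1 at 214660_at kept its direction and its call in all 16 alternatives, and ITGA5 in 15. These include the methods' t-test without adjustment, read at an unadjusted p under 0.05. Of the 10 genes 2 were called. The number was 4 among probe sets above the median level, a setting in which 6461 of 26296 probe sets were called. It was 1 by the methods' t-test with adjustment and 0 by limma without the trend (4 higher and none lower there at an unadjusted p under 0.05). It was 5 with both replicate 1 arrays left out (16.5% of all genes) and 2 to 4 without 1 array (4 without monolayer 1). Of the 20 probe sets 5 were called, and 1 without the trend, 2 by the t-test, 8 without both replicate 1 arrays and 3 to 7 without 1 array (3 without any one spheroid or monolayer 2). The 8 related lists held 8, 6, 10, 8, 11, 2, 20 and 9 measured genes. Of these genes 11 were called, where 13.1% of all genes were. The count was 1 without the trend, 1 by the t-test and 3 to 14 without 1 array (3 to 6 without any one array other than monolayer 1). Over all probe sets the count of 5149 (1519 higher, 3630 lower) was 457 (176 and 281) without the trend, 1241 (267 and 974) by the t-test, 10731 (3593 and 7138) by the t-test without adjustment and 2438 to 6577 (632 to 2263 and 1612 to 4314) without 1 array (under 5149 by over 1.5 times without spheroid 2 or 3 or monolayer 2 or 3). The count higher was 2561 as deposited, 2463 after quantile normalization, 2467 centred on the 75th percentile and 967 with the floor. The median of the laminin-binding genes, -0.31, was -0.16 as deposited, -0.13 after quantile normalization and -0.17 centred on the 75th percentile. In the same settings that of the collagen-binding genes, 1.45, was 1.59, 1.55 and 1.58, and that of the RGD-binding genes was 0.78 in each. With the mean over all probe sets of a gene the laminin median was -0.63 and the collagen median 1.002. Without 1 array the medians ran from 0.90 to 1.79 (collagen), from -0.48 to -0.12 (laminin) and from 0.56 to 0.72 (RGD), and the ratio differences, spheroids minus monolayers, from 0.0508 to 0.111 (ACTB) and from 0.000241 to 0.0165 (GAPDH). Signs turned for values that were not called: ITGA11 at 1554819_a_at (-0.66 to 1.15 without 1 array, -0.03 without spheroid 3), ITGA7 at 216331_at (-0.48 to 0.0728, the highest without monolayer 1), ITGA4 at 205884_at (-0.18 to 1.68, the lowest without spheroid 2) and VCAM1 (0.0811 as deposited, 0.0734 centred on the 75th percentile, 0.0702 with the floor, 0.94 without both replicate 1 arrays and -0.60 to 0.49 without 1 array). The cause was not tested. ITGA4 at 243366_s_at has no value with the floor, since all its signals lie under it.

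With the replicate number as a block 8 of the 20 probe sets and 5 of the 10 genes were called, where 11.2% of all probe sets and 15.5% of all genes were. ITGA2 at 227314_at, ITGA11 at 222899_at and ITGA6 at 201656_at were gained (adjusted p = 0.00491, 0.0292 and 0.00405 by limma), and no call of a member was lost. In the other lists COL6A1, COL5A1, TNC, CALB2 and THBD were gained (adjusted p = 0.0245, 0.0471, 0.0223, 0.0160 and 0.0109 by limma). The labels do not say that a number marks a shared culture. Deviations of same-numbered arrays from their group means correlated at 0.09, -0.01 and 0.02 over all probe sets and at 0.42, 0.095 and 0.22 over those above the median level. Over all probe sets spheroids 2 and 3 correlated best with a monolayer of another number.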
